A study of Mus musculus with 2 samples.

Results

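Histones are the proteins around which DNA is wound, and their genes are read here in sorted cells with T cell markers from a lymph node and from a melanoma. The histone genes were taken by name: every gene of the deposited list whose symbol starts with Hist1h, Hist2h, Hist3h, Hist4h, H2af, H3f3 or H1f. That gave 85 of 27998 genes, 69 from the histone clusters (Hist1h to Hist4h, called clustered below) and 16 named outside these clusters (H2af, H3f3 and H1f, called variant; 1 of them, H3f3aos, is an antisense RNA). Of the 85 genes, 61 had at least 20 unique molecular identifiers (UMIs, the tags that count each captured RNA molecule 1 time) over both libraries, 53 of them clustered and 8 variant. Another 16 had 1 to 19 UMIs: Hist2h3c2 (19), Hist2h3c1, Hist1h2ao, H1fx, Hist1h2ad, Hist1h4a, Hist2h2ab, Hist1h4k, H3f3aos, H1foo, Hist1h4m, Hist2h2aa2, Hist1h2ah, H2afy2, Hist1h2aa and the second gene entry named Hist2h2bb. The last 8 had none: H2afb1, H2afb2, H2afb3, Hist1h2bq, Hist1h2br, Hist1h1t, Hist1h2ba and H1fnt.

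The study set sorted cells of a lymph node that had received no challenge beside sorted cells of a B16 melanoma taken at day 14. Both came from C57BL/6 mice aged 5 to 8 weeks that carry Foxp3Cre-YFP, in which the Foxp3 promoter drives Cre and a yellow fluorescent protein in regulatory T (Treg) cells. Each group is 1 droplet library made from RNA 3′ ends, with 2202 lymph node cells (10681101 UMIs) and 1457 tumour cells (16669263 UMIs) after the limits described under processing. The labels state neither the gate of the sort nor the number of mice behind each library. With 1 library in each group there is no replicate check and no test; every interval below is a 95% interval for counting error only.

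When a cell copies its DNA it must also make enough histone protein to package the new copy. The clustered genes meet that demand: they have no introns, they are transcribed mainly in S phase, and their mRNA normally ends in a short stem-loop bound by the protein SLBP in place of a poly-A tail. The variant genes (H2A.Z, macroH2A, H3.3, H1.0 and others) make ordinary polyadenylated mRNA, apart from the gene of H2A.X, whose transcript can also end at a stem-loop, and many are made outside S phase to replace histones in chromatin that is not being copied. Capture here was through poly-A, so the clustered mRNAs counted are those that carried a run of A, and their level is not the level of all clustered histone mRNA.

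Cells were assigned to classes by 30 replication genes and 30 mitosis genes, neither list holding a histone gene. A cell was called cycling with at least 15 replication or 10 mitosis UMIs per 10000 and at least 5 UMIs of the list. It was called resting with at most 5 replication and at most 2 mitosis UMIs per 10000. The lymph node held 97 cycling cells (4.41%, exact Clopper-Pearson interval 3.59 to 5.35%) and 1353 resting cells (61.4%). The tumour held 506 cycling cells (34.7%, 32.3 to 37.2%) and 334 resting cells (22.9%). The classes are ranges of a score and not cell types: 22 of the 97 and 110 of the 506 cycling cells lay within 25% of a limit. Cycling cells were also the deeper ones, with a median of 12832 UMIs against 4203 in resting cells of the lymph node and 16763.5 against 6598 in the tumour. All 8 T and Treg markers were detected in both libraries, Cd3e at 534 and 552 CPM (UMIs of the gene per 1000000 UMIs of the cells) and Foxp3 at 21.9 and 17.2 CPM in lymph node and tumour; Cd8a and Ncr1 were at 0. CD8 and NK markers summed to 17.7 and 19.5 CPM, lymph node first, nearly all of it Cd8b1 (17.6 and 19.5 CPM). B cell markers summed to 17.7 and 9.30 CPM and macrophage markers to 0.655 and 3.299 CPM, lymph node first. The 5 B16 melanoma markers summed to 0.0936 CPM in the lymph node library and 32.9 CPM in the tumour library, 28.0 CPM in its cycling cells and 40.7 CPM in its resting cells, and their part in the results below was not tested.

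The clustered genes as a whole were far higher in cycling than in resting cells of both tissues. Their summed level was 2868 CPM in cycling and 190 CPM in resting lymph node cells, a 15.1-fold difference (14.1 to 16.2), and 1755 against 220 CPM in the tumour, a 7.99-fold difference (7.34 to 8.72). The 2 tissues had similar levels in resting cells (tumour over lymph node 1.16, 1.04 to 1.28) and parted in cycling cells (0.612, 0.591 to 0.634). Much of this came from 1 gene, Hist1h2ap: without it the cycling to resting ratio was 4.47 (4.10 to 4.87) in the lymph node and 3.997 (3.66 to 4.38) in the tumour, and the cycling levels of the tissues stood at a ratio of 1.07 (1.002 to 1.14). Leaving out the 5% of cells with the most UMIs, which could include droplets with more than 1 cell, left 34 of the 97 cycling lymph node cells and 435 of the 506 cycling tumour cells, and took the lymph node difference from 3.92 to 2.29 on the log2 scale. It also turned the tissue difference in cycling cells, from −0.71 to 0.96 on the log2 scale, so that the tumour was then higher. The variant genes differed less, with 7078 against 3460 CPM in the lymph node (2.05-fold, 1.997 to 2.10) and 7494 against 4479 CPM in the tumour (1.67-fold, 1.64 to 1.71).

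In the tumour, 44 of the 50 clustered genes with at least 20 UMIs were at least 2-fold higher in cycling cells, and so were 3 of 8 variant genes; none was 2-fold lower. Over all genes the share at least 2-fold higher was 12.7%, and the share at least 2-fold lower was 7.58%. In the lymph node 21 of 29 clustered genes and 4 of 8 variant genes were at least 2-fold higher and 1 clustered gene was lower, against 12.4% and 8.62% of all genes. Without the deepest 5% of cells the lymph node counts over both kinds were 10 higher and 4 lower, of 22 genes. The median clustered gene differed by 2.86 on the log2 scale in the tumour (all genes −0.03) and by 2.53 in the lymph node (all genes 0.11). For 12 clustered genes the whole counting interval lay above 2-fold in both tissues; over all genes that held for 5.33% in the tumour and 5.65% in the lymph node, each taken alone. The 12 were Hist1h1b, Hist1h1d, Hist1h2ap, Hist1h2ae, Hist1h2ak, Hist1h2al, Hist1h2bj, Hist1h2bm, Hist1h3a, Hist1h4d, Hist1h4h and Hist1h4i. Other clustered genes were at or above 2-fold in each tissue by ratio or bound, without the whole interval above it in both. They were Hist1h1e, Hist1h2ag, Hist2h2aa1, Hist2h2ac, Hist1h2bb, Hist1h3c, Hist1h3e, Hist1h3i and Hist1h4b.

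**Figure D1:**
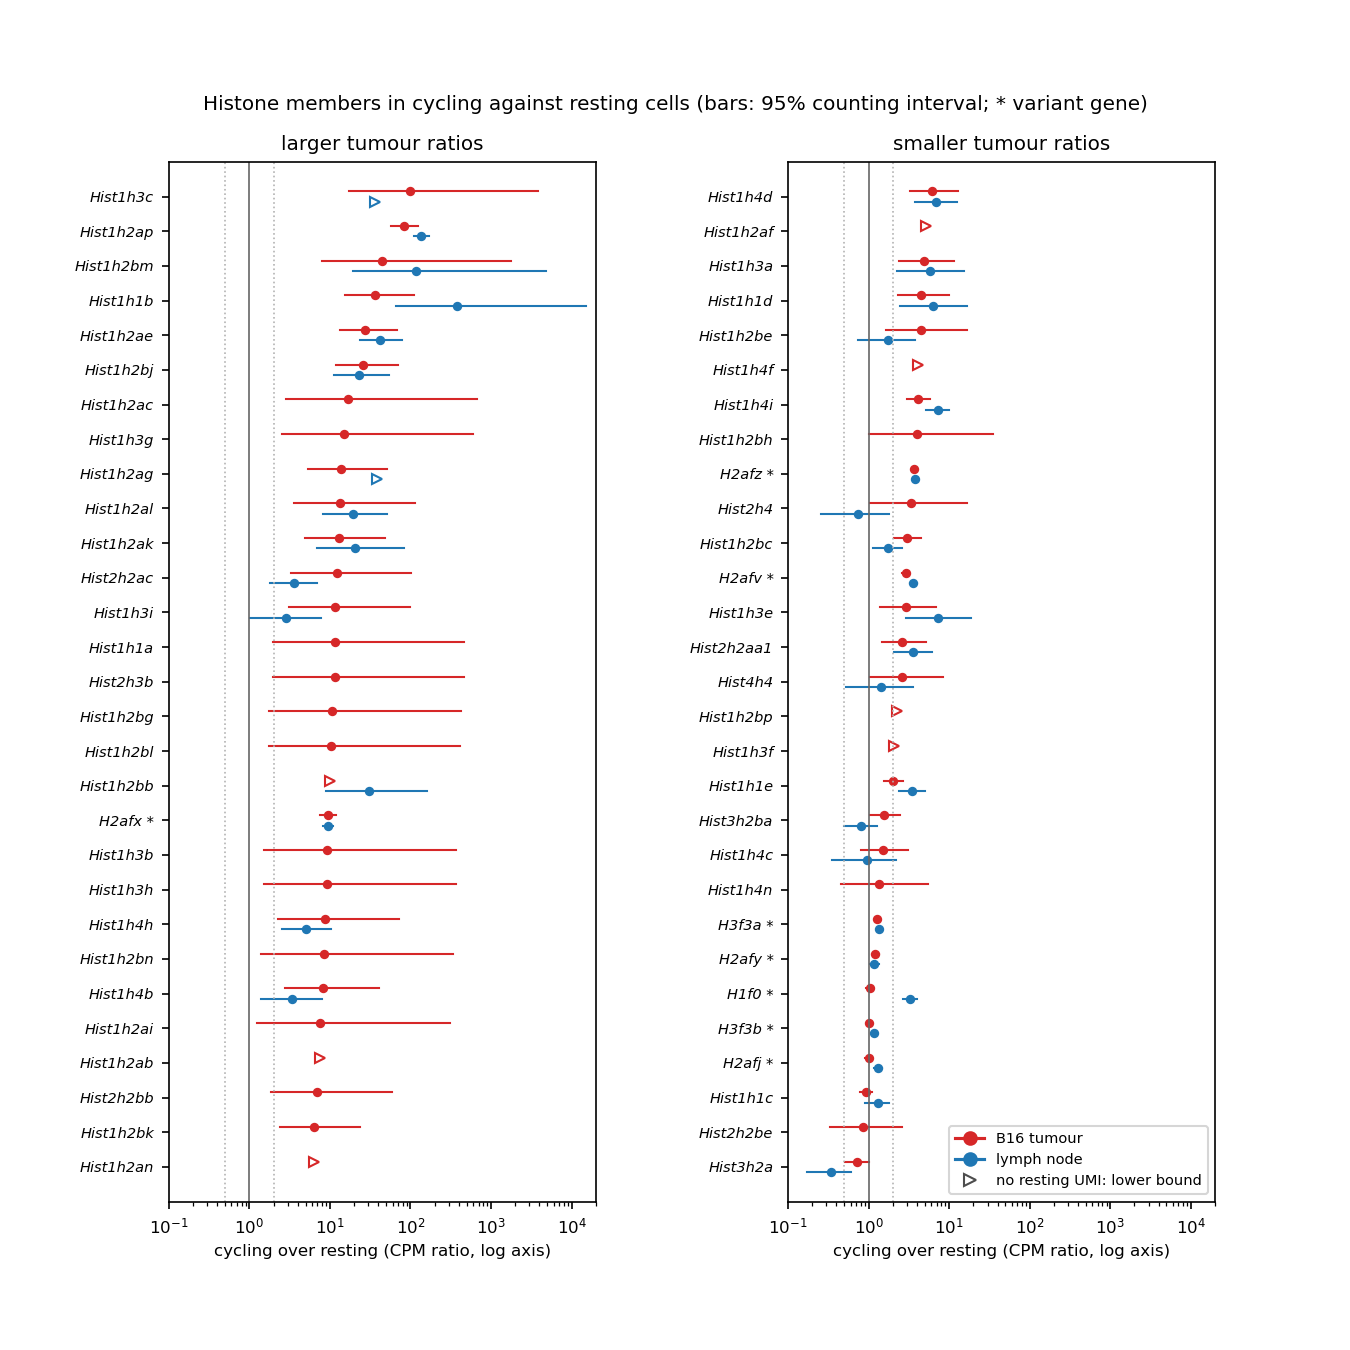
Cycling over resting level of each histone gene in tumour and in lymph node, as a ratio on a log axis with its 95% counting interval. Hist1h2ap lies at 82.5 and 136, while Hist1h1c, Hist3h2a and the H3.3 genes lie between 0.340 and 1.36.

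The clustered gene with the most UMIs in cycling cells was Hist1h2ap, 1 of the near-identical H2A genes (chr13:21833026-21833507, minus strand, GRCm38). Its level was 2089 CPM in cycling and 15.4 CPM in resting lymph node cells, and 922 and 11.2 CPM in the tumour. The ratios were 136 (111 to 169) and 82.5 (57.0 to 124). On the log2 scale that is 7.09 and 6.37, and 5.06 and 6.41 without the deepest 5% of cells. Cycling cells held 95.5% of its 3058 lymph node UMIs and 98.9% of its 8651 tumour UMIs, although they were 4.41% and 34.7% of the cells. Droplets without a cell (barcodes of at most 100 UMIs) held it at 53.7 CPM in the lymph node and 106 CPM in the tumour, above both resting levels. At an equal depth of 1811 UMIs a cell, 3.18% of resting and 43.3% of cycling lymph node cells had a Hist1h2ap UMI, and 1.80% and 48.0% in the tumour.

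Hist1h2ap also has an unusual 3′ end. Its annotated transcript is 482 bases long and stops 3 bases after the stem-loop, and 12 A bases stand directly before the loop. The same stretch is shown for the genes that the results turn on, each written as DNA, 5′ to 3′, with the 16 bases that match the histone stem-loop in capitals.
Hist1h2ap: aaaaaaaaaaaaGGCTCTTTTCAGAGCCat
Hist1h2ae: aaaaaaaacaaaGGCTCTTTTCAGAGCCat
Hist1h3c: tatttaaaaaaaGGCTCTTTTAAGAGCCac
Hist1h2bj: accaaatccaaaGGCTCTTTTCAGAGCCac
Hist1h4i: atgctacttaaaGGCCCTTTTTAGGGCCac
Hist1h1c: aacaatccaaaaGGCTCTTTTCAGAGCCac
Hist3h2a: acagacaccaaaGGCTCTTTTCAGAGCCac
H2afx: cacctccacaaaGGCCCTTTTAAGGGCCac
The loop itself differs little between a gene seen almost only in cycling cells (Hist1h3c) and genes as high in resting cells (Hist1h1c, Hist3h2a). The A run before the loop is longest in Hist1h2ap among the 8 shown. Over the 39 clustered genes with a loop, the longest A run that ends at most 5 bases before the loop was taken. Its length was set beside the UMIs in cells past both limits of the cycling score. The Spearman correlation was 0.229 in the lymph node and 0.179 in the tumour (0.162 and 0.107 without Hist1h2ap). In 34 of the genes the run is 3 to 6 bases long, with a median of 7 UMIs in the lymph node and 49.5 in the tumour. The 3 genes other than Hist1h2ap with at least 7 bases had medians of 24 (0 to 121) and 294 (7 to 596). Among them, Hist1h2ae (121 in the lymph node) has other bases between that run and the loop. The part of the A run in capture was not tested. Hist1h2ao has the same 12 A bases and had 1 UMI in the lymph node and 15 in the tumour. Of the 50-base words of Hist1h2ap, 93.1% are shared with other genes, so how many UMIs belong to Hist1h2ap and how many to its copies cannot be told from the counts.

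The other genes of the core histones followed in cycling cells at lower levels. H2A and H2B form the dimers of the nucleosome. Hist1h2ae (H2A) was at 95.9 CPM in cycling and 2.31 CPM in resting lymph node cells, 41.5-fold (23.9 to 77.9), and at 76.3 and 2.79 CPM in the tumour, 27.3-fold (13.2 to 68.1). Hist1h2bj (H2B) was at 34.3 and 1.49 CPM in the lymph node, 23.1-fold, and at 61.7 and 2.40 CPM in the tumour, 25.8-fold. Hist1h2ag, which stands head to head with Hist1h2bj, had no resting UMI in the lymph node (at least 39.0-fold higher in cycling cells) and was 13.8-fold higher in the tumour. Ratios of Hist1h2ak were 20.6 and 13.0, of Hist1h2al 19.2 and 13.5, of Hist1h2bm 117 (19.3 to 4788, 1 resting UMI) and 44.8, and of Hist1h2bb 30.3 and at least 10.2, lymph node first. Hist2h2aa1 and Hist2h2ac, from the smaller cluster on chromosome 3, had lower lymph node ratios of 3.54 each and tumour ratios of 2.63 and 12.1.

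H3 and H4 form the tetramer at the core of the nucleosome. Hist1h3c was at 17.9 CPM in cycling lymph node cells with no resting UMI (at least 36.1-fold), and at 39.1 against 0.399 CPM in the tumour (98.0-fold, 17.5 to 3880, 1 resting UMI). Hist1h3a, Hist1h3e and Hist1h3i had ratios of 5.78, 7.22 and 2.89 in the lymph node and 4.89, 2.90 and 11.7 in the tumour. Hist1h4i, the H4 gene with the most UMIs, was at 77.3 and 10.7 CPM in the lymph node (7.20-fold, 5.24 to 9.95) and at 68.5 and 16.8 CPM in the tumour (4.09-fold, 2.99 to 5.73). Ratios of Hist1h4d were 6.81 and 6.15, of Hist1h4b 3.40 and 8.28, and of Hist1h4h 5.10 and 8.64. The H4 genes are known to encode the same protein, so the differences between them are between transcripts and not between proteins.

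Linker histones (H1) sit on the DNA between nucleosomes, and their genes split. Hist1h1b was nearly absent from resting cells: 0.165 CPM (1 UMI) against 62.2 CPM in the lymph node, a ratio of 377 (65.9 to 15053), and 1.996 against 72.3 CPM in the tumour, a ratio of 36.2 (15.4 to 112). Hist1h1d (6.26 and 4.50) and Hist1h1e (3.48 and 2.02) differed less. Hist1h1c was about as high in resting cells, with 32.9 against 25.4 CPM in the lymph node (1.29, 0.910 to 1.81) and 59.7 against 64.7 CPM in the tumour (0.923, 0.773 to 1.11). Its log2 ratio, −0.12 in the tumour and 0.37 in the lymph node, was 0.20 and −0.82 with every cell thinned to equal depth and 0.05 and −0.40 without the deepest 5% of cells.

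Few genes had UMIs in cycling cells and none in resting cells, counted without thinning. Of the 53 clustered genes with at least 20 UMIs, 4 had no UMI in resting cells of either tissue: Hist1h2ab, Hist1h2an, Hist1h2af and Hist1h2bp. Hist1h2ab had 18 UMIs in cycling lymph node cells and 83 in cycling tumour cells, which gives at least 26.0-fold and at least 7.47-fold. Bounds for Hist1h2an were 14.4 and 6.30, for Hist1h2af 18.8 and 5.13, and for Hist1h2bp 11.6 and 2.25. All the others had resting UMIs in at least 1 tissue. With each cell thinned to 1811 UMIs, Hist1h2bm, Hist1h2ag and Hist1h3c also had no UMI in resting cells of either tissue. Droplets without a cell held the clustered genes at 302 and 710 CPM, above the 190 and 220 CPM of resting cells, lymph node first. Resting UMIs therefore cannot be set apart from background. A gene without resting UMIs is one that was not detectable there at this depth.

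Genes at least 2-fold higher in cycling tumour cells but with under 20 UMIs in the lymph node classes were Hist1h1a, Hist1h2ab, Hist1h2ac, Hist1h2an, Hist1h2af, Hist1h2ai, Hist1h2bk, Hist2h2bb, Hist1h2bg, Hist1h2bl, Hist1h2bn, Hist1h2bh, Hist1h2bp, Hist1h3g, Hist2h3b, Hist1h3b, Hist1h3h, Hist1h3f and Hist1h4f. Their tumour ratios ran from 4.05 (Hist1h2bh) to 16.7 (Hist1h2ac), with bounds from at least 2.07 (Hist1h3f) to at least 7.47 (Hist1h2ab) where no resting UMI was read. These ratios rest on 23 to 94 cycling UMIs.

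A few clustered genes stood near or below 2-fold in at least 1 tissue. Hist3h2a, from the short cluster on chromosome 11 (chr11:58954685-58956830), was lower in cycling cells: 8.59 against 25.3 CPM in the lymph node (0.340, 0.172 to 0.611) and 13.1 against 18.4 CPM in the tumour (0.716, 0.506 to 1.03). Its neighbour Hist3h2ba was at 16.5 and 20.2 CPM in the lymph node (0.817) and 16.8 and 10.8 CPM in the tumour (1.56). Hist1h4c had ratios of 0.947 and 1.51, Hist2h4 0.743 and 3.33, Hist4h4 1.44 and 2.59, Hist1h2bc 1.73 and 2.98, and Hist1h2be 1.73 and 4.45, lymph node first. With every cell thinned to equal depth the Hist4h4 tumour ratio turned to −1.18 on the log2 scale. In the tumour Hist2h2be stood at 0.855 and Hist1h4n at 1.35, on 25 and 24 UMIs. Hist1h2bf, Hist1h3d and Hist1h4j had too few UMIs for a ratio in either tissue.

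Variant genes ranged from several-fold higher in cycling cells to nearly level. H2afz, which encodes H2A.Z, was at 2919 CPM in cycling and 768 CPM in resting lymph node cells (3.80-fold, 3.64 to 3.96), and at 2921 and 802 CPM in the tumour (3.64-fold, 3.48 to 3.81). H2afv, the second H2A.Z gene, had ratios of 3.60 and 2.90. H2afx encodes H2A.X, the form phosphorylated at DNA breaks, and its ratio was the highest of the variant genes: 389 against 41.0 CPM in the lymph node (9.50-fold, 8.16 to 11.1) and 288 against 30.3 CPM in the tumour (9.48-fold, 7.55 to 12.1). H2afx is the variant whose annotated transcript also holds the stem-loop, shown above.

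The H3.3 genes differed little between cycling and resting cells. H3f3b was at 1415 and 1195 CPM in cycling and resting lymph node cells (1.18, 1.13 to 1.24) and at 2033 and 2008 CPM in the tumour (1.01, 0.981 to 1.04). H3f3a was somewhat higher in cycling cells, with ratios of 1.36 and 1.28; its antisense neighbour H3f3aos overlaps it, and no source used here says whether the counting used strand. H2afj (H2A.J) had ratios of 1.32 and 1.01, and H2afy (macroH2A1) of 1.18 and 1.22. H1f0 encodes H1.0, a linker histone known from cells that have stopped dividing, and its pattern differed by tissue: 116 against 35.5 CPM in the lymph node (3.26, 2.64 to 4.02) and 193 against 186 CPM in the tumour (1.04, 0.935 to 1.15).

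**Figure D2:**
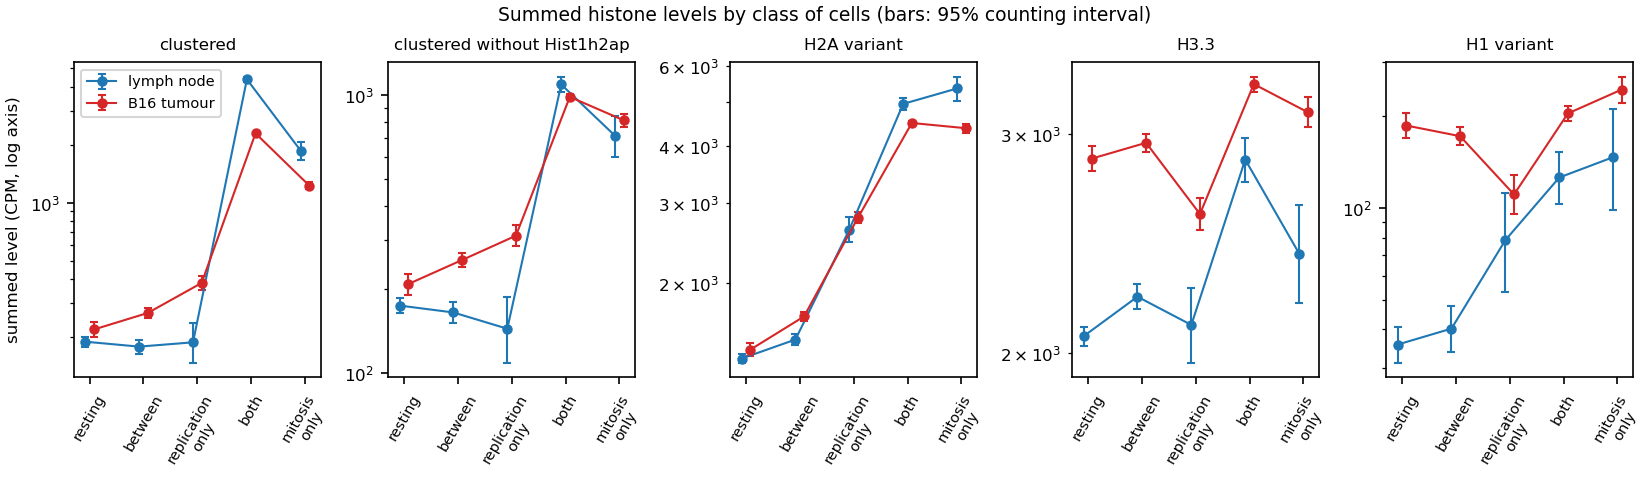
Summed level in CPM on a log axis of sets of histone genes in each cell class of both tissues, with 95% Poisson intervals. The sets are all clustered genes, clustered genes without Hist1h2ap, H2A variants, H3.3 genes and H1 variants. Clustered genes sum to 190 and 220 CPM in resting cells, lymph node first, and are highest in cells past both limits. The H3.3 genes sum to 2062 and 2868 CPM in resting cells.

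At equal depth a clustered gene was again seen in more cycling than resting cells of both tissues. Among cycling cells it was seen more often in the tumour, although the summed level was lower there. With each cell thinned to 1811 UMIs, 31.1% of resting lymph node and 30.8% of resting tumour cells had a UMI of a clustered gene, against 64.9% and 74.3% of cycling cells. Without thinning the shares were 53.1% and 71.0% in resting and 97.4% in cycling tumour and 86.6% in cycling lymph node cells, so depth sets much of them. Droplets without a cell held the clustered genes at 302 CPM (lymph node) and 710 CPM (tumour), above the 190 and 220 CPM of resting cells. H2afz was seen in 64.2% and 63.8% of resting and 94.8% and 94.7% of cycling cells at equal depth, H3f3b in 86.8% and 94.3% of resting and 90.7% and 95.3% of cycling cells, lymph node first. Droplets without a cell held H2afz at 1838 and 2875 CPM and H3f3b at 2005 and 2834 CPM, all above their resting levels, so the resting shares cannot be set apart from background.

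Classes within the cycling cells are named after the gene lists, and the phase of each cell was not measured. The replication list includes Mcm2, Cdc6, Cdt1 and E2f1, and the mitosis list Mki67, Top2a, Ccna2 and Cdk1. Within the cycling class the clustered genes were not highest in the cells past the replication limit alone. Those 115 tumour cells had 383 CPM, the 279 cells past both limits 2289 CPM, and the 112 past the mitosis limit alone 1223 CPM. The ratio of cells past both to replication alone was 5.98 (5.52 to 6.48), and replication alone over mitosis alone was 0.313 (0.286 to 0.342). The lymph node, with 190 CPM in resting cells, had the same order: 188 CPM in 36 cells, 4365 CPM in 45 cells and 1858 CPM in 16 cells. Median depth moved with this as well, to 20254 UMIs in tumour cells and 16031 UMIs in lymph node cells past both limits; its part was not tested. With the class limits doubled or made 0.5 times as high, the log2 ratio of replication to mitosis cells went from −1.68 to −0.98 and −0.91.

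Tumour cells past both limits held 42 of 56 histone genes at a level at least 2-fold above that in cells past replication alone, and none 2-fold below it, against 5.30% and 1.80% of all genes. This count includes Hist1h2bp, whose bound of at least 1.97 falls short because no UMI was read in replication cells. In the lymph node all 14 clustered genes tested and 2 of 8 variant genes were at least 2-fold higher, against 12.1% of all genes, and none was lower (3.78%). Hist1h2ap was at 71.5 CPM in tumour replication cells, 1303 CPM in cells past both limits and 411 CPM in mitosis cells, and at 44.5, 3272 and 1144 CPM in the lymph node. H2afx was at 50.6, 332 and 369 CPM in the tumour classes. Exceptions among clustered genes with tumour ratios under 2 were Hist1h3a (0.914), Hist1h4f (1.002), Hist1h3i and Hist1h3h (1.41 each), Hist1h4h (1.65), Hist1h4b (1.67), Hist1h2bc (1.70) and Hist1h2bg (1.97).

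Replication set directly against mitosis put 22 of 35 genes at least 2-fold lower in tumour replication cells and 1 higher, where 5.61% and 5.71% of all genes were. The counts depend on the setting: 7 lower and none higher with every cell thinned to equal depth, 7 lower with limits at 0.5 times, and 11 lower and none higher with a minimum of 50 UMIs. Hist1h3a was the gene that was higher: 19.7 against 3.04 CPM, 6.46-fold (2.51 to 21.2) on 33 and 5 UMIs. The lower variant genes were H2afx (0.137), H2afv (0.314) and H1f0 (0.454). The lower clustered genes were Hist1h1b, Hist1h1c, Hist1h1d, Hist1h2ap, Hist1h2ae, Hist1h2ab, Hist3h2a, Hist2h2aa1, Hist1h2bj, Hist1h2bc, Hist3h2ba, Hist1h2bm, Hist1h2bb, Hist1h2be, Hist1h2bk, Hist1h3c, Hist1h4i, Hist1h4c and Hist1h4h, from 0.174 (Hist1h2ap) to 0.489 (Hist3h2a). With doubled limits Hist1h4h turned to 0.057 on the log2 scale. Hist1h1e (0.578), Hist1h2ag (0.641), Hist1h2ak (0.699), Hist1h3e (0.734), Hist1h3i (0.513), Hist1h4d (0.571) and Hist1h4b (1.30) lay within 2-fold, as did H2afz (0.724), H3f3b (0.786), H3f3a (0.906), H2afy (0.979) and H2afj (1.08).

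In tumour cells past the mitosis limit alone, the share of histone genes at least 2-fold higher was close to that of all genes. From cells past both limits to mitosis cells in the tumour, Hist1h2bc was 3.09-fold higher (2.47 to 3.86) and Hist1h1c 2.20-fold higher (1.83 to 2.64). These were the 2 genes of 56 (3.57%) that were at least 2-fold higher, against 3.61% of all genes. Another 14 were at least 2-fold lower, against 7.30%. Hist1h2bc, an H2B gene, went from 29.4 to 90.7 CPM and Hist1h1c from 53.4 to 117 CPM. In the lymph node Hist1h2bc was 3.90-fold higher (1.84 to 8.20), while the Hist1h1c ratio was 0.906 (0.337 to 2.09) on 7 mitosis UMIs.

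The cycling cells were also ordered by the mitosis share of their class gene UMIs and cut into 4 equal parts. Courses in the lymph node were not always those of the classes. Hist1h1b stood at 91.7 CPM in cells past both limits and 55.7 CPM in mitosis cells there, on 75 and 11 UMIs. Hist1h2ap went through 186, 1163, 1198 and 941 CPM in the tumour and 8.72, 1406, 3291 and 2947 CPM in the lymph node. Hist1h1b was highest in the second part in the tumour (29.2, 96.0, 88.5 and 60.7 CPM) and in the last part in the lymph node (0, 49.1, 67.5 and 112 CPM). By contrast Hist1h1c (29.2, 36.3, 67.3 and 109 CPM), Hist1h2bc (14.1, 23.9, 42.7 and 72.9 CPM) and H2afx (63.6, 174, 340 and 578 CPM) were highest in the last part of the tumour cells.

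**Figure D3:**
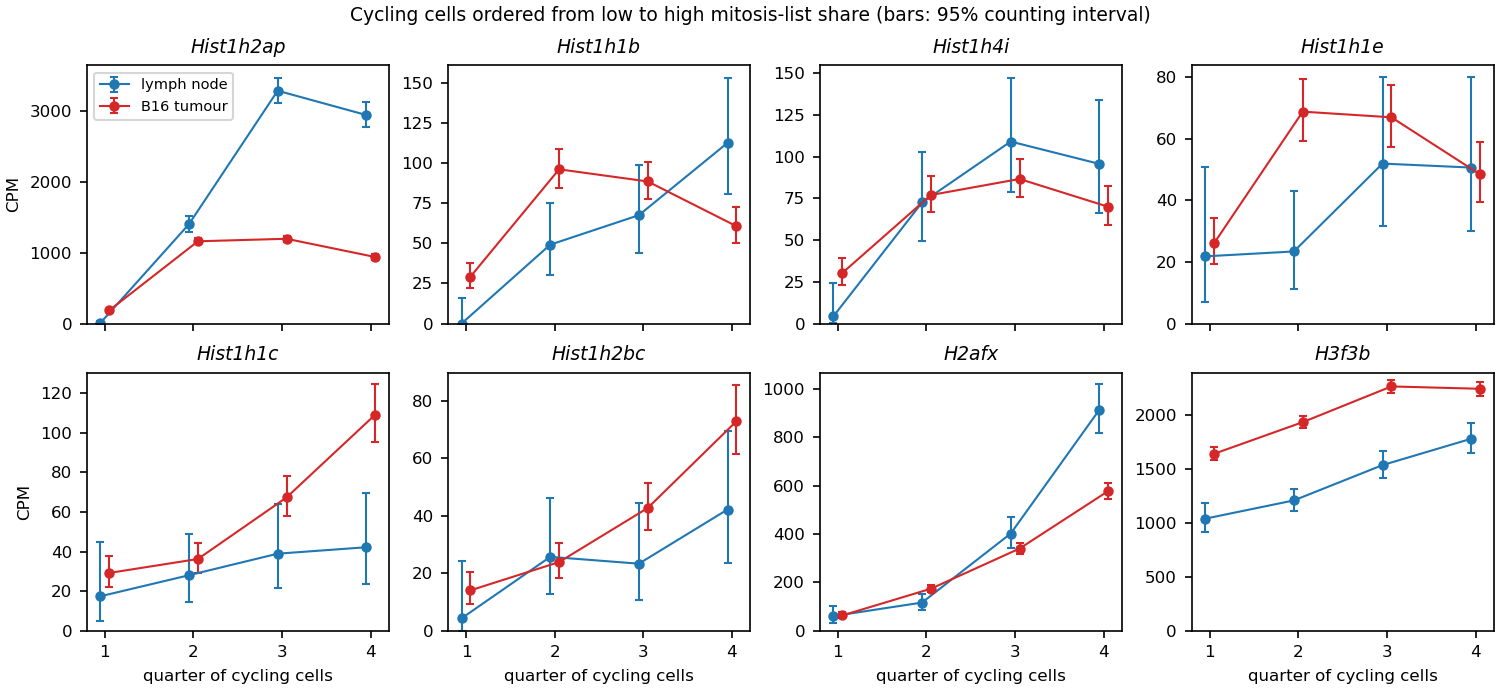
Level in CPM of selected histone genes in 4 equal parts of the cycling cells, ordered from replication to mitosis by the mitosis share of their class genes, with 95% Poisson intervals. Hist1h2ap and Hist1h1b are highest in the middle parts of the tumour cells, and Hist1h1c, Hist1h2bc and H2afx in the last.

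From cell to cell the class past both limits was mixed. Clustered genes took more than 20 of every 10000 UMIs in 31 of 45 such lymph node cells (68.9%) and 154 of 279 tumour cells (55.2%). They did so in none of 36 and 115 replication cells, in 5 of 16 and 23 of 112 mitosis cells, and in 2 of 1353 and 1 of 334 resting cells. Medians were 48.0 and 22.7 per 10000 in cells past both limits against 1.46 and 1.70 in resting cells, lymph node first. Across the cells past both limits the Hist1h2ap rate went with the rate of the other clustered genes, with a Pearson correlation of 0.703 over 45 lymph node cells and 0.559 over 279 tumour cells. Its correlation with H2afz was 0.362 and 0.211. These are descriptions over cells that share 1 library.

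The make-up of the clustered UMIs changed with class. Hist1h2ap was 8.09% of them in resting and 72.8% in cycling lymph node cells, and 5.09% and 52.5% in the tumour. By protein, the cycling to resting ratios in lymph node and tumour were 40.5 and 26.1 for H2A (5.62 and 6.29 without Hist1h2ap), 3.66 and 5.31 for H2B, 7.31 and 10.1 for H3, 4.06 and 4.13 for H4, and 3.81 and 2.12 for H1. H1 genes thus had the smallest ratio in the tumour, and they were 44.5% (40.3 to 48.8%) of clustered UMIs in its resting cells against 20.4% (18.1 to 22.8%) in resting lymph node cells.

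**Figure D4:**
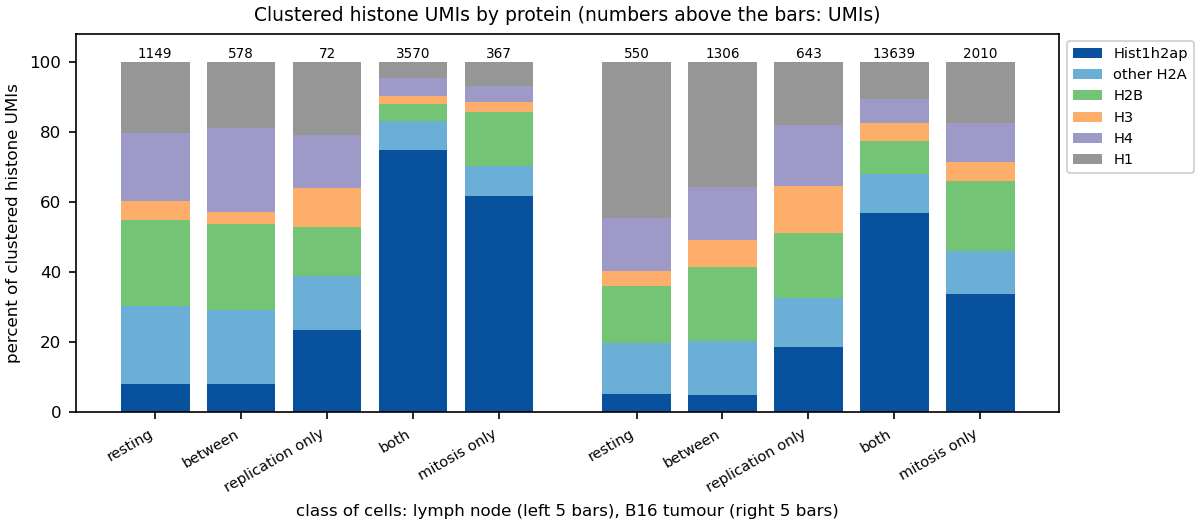
Share in percent of clustered histone UMIs by protein, with Hist1h2ap apart from the other H2A genes, in each class of both tissues. H1 genes take 44.5% in resting tumour cells and 20.4% in resting lymph node cells. Cycling cells are drawn as replication only, both and mitosis only. Over these bars together Hist1h2ap takes 52.5% in the tumour and 72.8% in the lymph node.

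Across all cells, clustered genes summed to 1089 CPM in the tumour and 537 CPM in the lymph node (2.03-fold, 1.97 to 2.09). The tumour to lymph node ratio was 0.612 in cycling and 1.16 in resting cells, as above. In cells of neither class the sums were 267 CPM in the tumour and 179 CPM in the lymph node. The cycling share of cells was 34.7% against 4.41%, and its part in the difference was not tested. Without the deepest 5% of cells the clustered log2 ratio went from 1.02 to 2.30. Of 61 genes, 29 had a tumour level at least 2-fold above that of the lymph node and none was 2-fold lower, where 14.3% and 9.66% of all genes were. They were all 5 H1 genes (2.39 for Hist1h1c to 5.08 for Hist1h1b), 8 of 10 H3 genes (up to 9.71 for Hist1h3c), 6 of 13 H2A, 6 of 15 H2B and 3 of 10 H4 genes, and H1f0. The H2A genes were Hist1h2ae, Hist1h2ag, Hist1h2ak, Hist1h2ab, Hist1h2an and Hist1h2af (2.61 to 5.74), and the H2B genes Hist1h2bj, Hist1h2bm, Hist1h2bb, Hist1h2bk, Hist1h2bl and Hist1h2bh (2.65 to 6.39). The H4 genes were Hist1h4i (2.29), Hist1h4d (2.53) and Hist1h4f (10.3, on 48 and 3 UMIs). Variant genes stood at 1.99 for H2afx, 1.90 for H2afz, 1.63 for H3f3b, 1.59 for H2afv, 1.21 for H2afy, 1.08 for H3f3a and 1.02 for H2afj.

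Within cycling cells fewer histone genes passed 2-fold between the tissues. Of 60 genes tested, 3 were at least 2-fold higher in the tumour and 8 lower, against 8.57% and 5.54% of all genes. Hist1h3c (2.19), Hist1h2ac (2.33) and Hist1h4f (at least 2.31) were higher. Hist1h2ap (0.442, 0.423 to 0.461), Hist1h2al (0.486), Hist1h4h (0.482), Hist1h2bp (0.471), Hist1h2bf (0.452), Hist1h2bn (0.424), Hist1h3d (0.409) and Hist1h2ai (0.324) were lower. Without the deepest 5% of cells the counts were 29 higher and 4 lower of 54 genes, and Hist1h2ap turned from −1.18 to 0.94 on the log2 scale, higher in the tumour. The lower genes other than Hist1h2ap had 5 to 31 UMIs in cycling lymph node cells.

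Within resting cells, 3 of 23 histone genes were at least 2-fold higher in the tumour and 3 lower, close to the 14.0% and 10.6% of all genes. All 3 higher genes encode linker histones. H1f0 was at 186 against 35.5 CPM, 5.25-fold (4.46 to 6.20), Hist1h1c at 64.7 against 25.4 CPM, 2.54-fold (2.03 to 3.19), and Hist1h1e at 27.1 against 10.9 CPM, 2.49-fold (1.75 to 3.55). At equal depth 26.0% of resting tumour cells and 5.25% of resting lymph node cells had an H1f0 UMI. Droplets without a cell held H1f0 at 201 CPM in the tumour and 67.7 CPM in the lymph node, and Hist1h1c at 73.4 and 25.5 CPM; with free RNA subtracted at 5% of UMIs the log2 ratios were 2.46 for H1f0 and 1.34 for Hist1h1c, against 2.39 and 1.35.

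The genes lower in resting tumour cells rested on few UMIs. Hist2h4 was at 1.20 against 5.78 CPM (0.207, 0.0408 to 0.657), Hist2h2ac at 0.799 against 3.63 CPM (0.220) and Hist1h2be at 1.60 against 4.13 CPM (0.387, 0.0978 to 1.12), with 2 to 4 tumour UMIs each. With a minimum of 50 UMIs no gene was 2-fold lower, and thinning turned Hist1h2be to 0.21 on the log2 scale. H3f3b was 1.68-fold higher in the tumour (1.62 to 1.74), and Hist1h4i 1.56-fold. Lying nearer to 1 were Hist1h2ae (1.21), Hist1h4d (1.15), H2afy (1.11), H2afv and H2afj (1.05 each), H2afz (1.04), H3f3a (0.992), Hist1h4c (0.906), Hist2h2aa1 (0.879), Hist1h2bc (0.859), H2afx (0.741), Hist1h2ap (0.728), Hist3h2a (0.727), Hist4h4 (0.575) and Hist3h2ba (0.535). TMM and median-ratio scaling put H2afz, H2afv and H2afj slightly below 1, at −0.09 to −0.07 on the log2 scale. Without the marker limits on cells, the Hist1h2bc log2 ratio went from −0.22 to 2.18, and its cycling to resting log2 ratio in the tumour from 1.57 to −0.64.

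The clustered genes were also grouped by the 3′ end of their annotated transcript, since capture was through poly-A. The stem-loop was found in 39 of 67 clustered genes with an annotated transcript, against 44 of 21901 protein-coding genes (0.201%). The poly-A signal AATAAA, read on the transcript strand, stood in the last 50 bases of 14 of the 67, against 59.2% of protein-coding genes. The groups were 3: 19 transcripts that end within 100 bases of the loop, 20 that run further past it, and 28 with no loop in the annotated transcript. The signal was present in 0, 8 and 6 of them.

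Genes whose transcript runs past the loop held most of the clustered UMIs read in resting cells. Their resting sum was 127 CPM in the lymph node and 162 CPM in the tumour, against 18.0 and 19.6 CPM for those that end at the loop and 29.4 and 25.6 CPM for those with no loop, Hist1h2ap left out. Their cycling to resting ratio was 2.77 (2.47 to 3.11) in the lymph node and 2.34 (2.11 to 2.60) in the tumour. The 5 with the highest resting level, Hist1h1c, Hist1h1e, Hist1h4i, Hist3h2a and Hist3h2ba, held 92.5 of the 127 CPM and 138 of the 162 CPM. The ratio of their sum was 1.87 (1.60 to 2.18) and 1.55 (1.38 to 1.74), and the other 15 genes had 5.19 (4.30 to 6.26) and 6.81 (5.27 to 8.95), lymph node first. The 5 were picked by the resting level, which is the denominator of this ratio. That choice itself favours a lower ratio in them than in the other 15, and the intervals do not allow for it. Genes that end at the loop had ratios of 10.0 (7.97 to 12.7) and 10.9 (8.24 to 14.8), and those with no loop 7.64 and 8.57. Without Hist1h2ap, droplets without a cell held the clustered genes at 248 CPM in the lymph node and 603 CPM in the tumour. Resting cells held them at 174 and 208 CPM, so the resting sums cannot be set apart from background. Of the genes whose loop is printed above, Hist1h2ap, Hist1h2bj and Hist1h3c end 3, 23 and 74 bases after it, and Hist1h2ae, Hist1h4i, Hist1h1c and Hist3h2a 151, 330, 840 and 1643 bases after it.

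**Figure D5:**
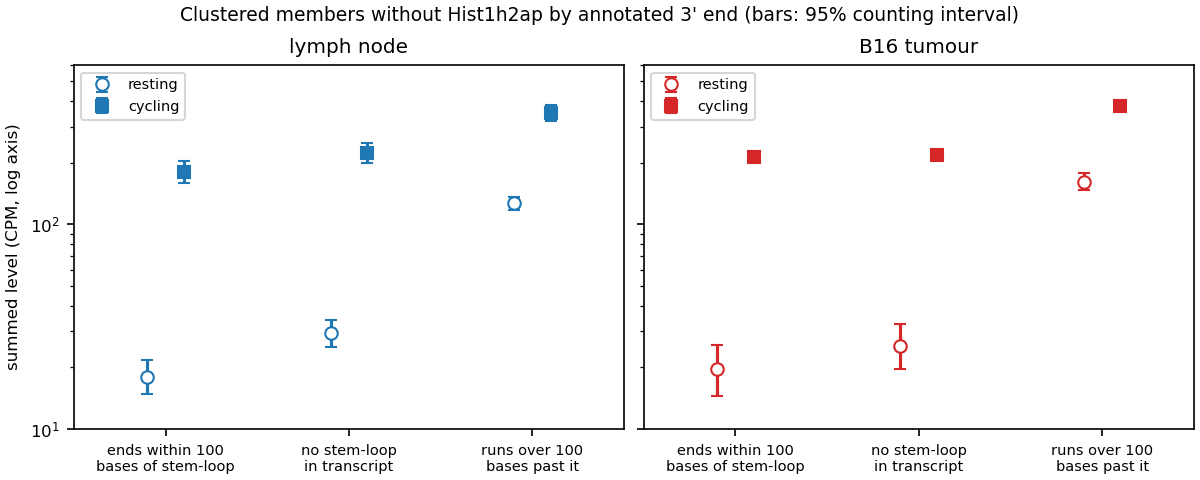
Summed level in CPM of clustered histone genes without Hist1h2ap in resting and cycling cells, by where the annotated transcript ends relative to the stem-loop, with 95% Poisson intervals. Resting levels are 127 and 162 CPM for transcripts that run past the loop and 18.0 to 29.4 CPM for the other groups.

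Many clustered genes share sequence, which limits what single genes show. Of 67 clustered genes, 63 share at least 1 word of 50 bases with another gene, and 33 share at least 50% of their words. No source used here says how reads that match several genes were treated, so ratios of single copies are less certain than sums.

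The start regions differ between histone classes as well. RefSeq promoter windows (GRCm38.p6) were matched for 73 of the 85 genes, and the 250 bases before the start were searched on both strands. CCAAT was present in 81.7% of 60 clustered promoters against 34.5% of 27025 promoters of the same length, TATAAA in 48.3% against 13.0%, and ATTTGCAT, the octamer known from H2B promoters, in 12 of 60 against 1.61%. By protein, CCAAT was present in all 6 H1, 17 H2A and 15 H2B promoters and in 8 of 10 H3 promoters, but in only 3 of 12 H4 promoters. The octamer was present in 7 of 17 H2A and 5 of 15 H2B promoters and in none of the H1, H3 or H4 promoters. AAACACA, known from H1 promoters, was present in 5 of 6 H1 promoters against 6.22% of all.

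The promoters of both H1 genes that part in resting cells, and of the H2B gene that stands head to head with an H2A gene, are shown with every match to these motifs, on either strand, in capitals. Hist1h1b is at chr13:21780626-21780875 (minus strand), Hist1h1c at chr13:23738557-23738806 (plus strand) and Hist1h2bj at chr13:22042948-22043197 (plus strand).
Hist1h1b: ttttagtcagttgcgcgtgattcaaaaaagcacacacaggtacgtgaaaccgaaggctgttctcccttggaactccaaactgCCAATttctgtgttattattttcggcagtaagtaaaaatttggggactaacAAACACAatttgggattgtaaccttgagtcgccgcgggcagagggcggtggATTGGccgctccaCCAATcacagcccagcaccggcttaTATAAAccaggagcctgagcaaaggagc
Hist1h1c: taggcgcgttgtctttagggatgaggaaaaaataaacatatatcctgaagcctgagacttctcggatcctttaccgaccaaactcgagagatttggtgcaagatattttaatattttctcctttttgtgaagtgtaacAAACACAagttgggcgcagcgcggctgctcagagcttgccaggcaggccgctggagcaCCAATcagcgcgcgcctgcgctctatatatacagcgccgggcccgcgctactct
Hist1h2bj: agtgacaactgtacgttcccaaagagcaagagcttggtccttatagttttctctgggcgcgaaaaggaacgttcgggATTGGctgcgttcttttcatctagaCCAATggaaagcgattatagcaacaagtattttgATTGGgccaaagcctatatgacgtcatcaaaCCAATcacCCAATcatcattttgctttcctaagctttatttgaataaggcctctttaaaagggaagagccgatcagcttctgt
Hist1h1b holds 3 CCAAT, 1 TATAAA and 1 AAACACA, and Hist1h1c 1 CCAAT and 1 AAACACA, though Hist1h1b was 36.2-fold and Hist1h1c 0.923-fold as high in cycling as in resting tumour cells. Hist1h2bj holds 5 CCAAT in the stretch it shares with Hist1h2ag, and both genes were higher in cycling cells of both tissues.

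Genes that make, carry or place histones were read from a list of 40, of which 39 could be tested over all cells. In cycling tumour cells 21 of 39 were at least 2-fold higher than in resting cells and none was lower, against 12.7% and 7.58% of all genes. In the lymph node 19 were higher and 1 lower, against 12.4% and 8.62%. By role, 6 of 9 genes of histone mRNA 3′ ends and transcription were higher in the tumour and 4 of 9 in the lymph node, 9 of 11 and 8 of 11 chaperones of new histones, and 6 of 19 and 7 of 19 genes of replication-independent exchange. Chaf1a, which places new H3 and H4 behind the fork, had ratios of 66.0 in the tumour and 46.9 in the lymph node, and the H3-H4 chaperone Asf1b 18.5 and 29.7. Slbp, which binds the stem-loop, was 5.20-fold higher in cycling lymph node cells.

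By class, tumour replication cells held 8 of 37 supply genes at 2-fold or more above mitosis cells and 2 at 2-fold or more below. Over all genes the shares were 5.71% and 5.61%. The higher supply genes included Chaf1b (4.12), Chaf1a (3.91), the H3-H4 carrier Nasp (3.09) and Slbp (2.88). The lower supply genes were Cenpa, the centromeric H3, and its chaperone Hjurp, at 0.105 and 0.299. Over the same cells the clustered histone sum stood at 0.313.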

How the data were processed

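The deposited values are UMI counts per gene and barcode, written by the authors as 1 matrix of 737280 barcodes per library; Cell Ranger and the mouse build mm10 are named per the submitters' processing notes. No source used here names the version, the annotation or the handling of reads that match several genes. Cells were barcodes with at least 1811 (lymph node) or 3834 (tumour) UMIs, at least 200 genes, at most 10% mitochondrial UMIs, and sums under 20 UMIs for Pmel, Dct and Mlana, under 3 for C1qa, C1qb and Lyz2 and under 2 for Cd79a and Ms4a1. Of 2226 and 1489 called barcodes, 2202 and 1457 stayed. Called cells of the libraries shared 1 barcode. No doublet caller was run; an alternative left out the 5% of cells with most UMIs.

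UMIs were summed over the cells of a class and scaled to 1000000 UMIs (CPM), with exact Poisson intervals. Since a UMI counts 1 molecule end, no length scaling was applied. Ratios have exact conditional binomial intervals, and a side at 0 gave a bound from 3 counts over the group. Genes with at least 20 UMIs over both sides entered a comparison, and those with a ratio of 2 or more, or with UMIs on 1 side only, were counted as past it. Every such histone gene was to be named in the 5 main comparisons. Members, lists and classes were chosen with earlier results of these data known. Stem-loops were searched in annotated GENCODE M21 transcripts (GRCm38), since a genome sequence was not used here. The code was tested on simulated data. Python 3.11.15, numpy 2.4.6, scipy 1.17.1 and pandas 2.3.3 were used, and edgeR 4.0.16 in R 4.3.3 gave alternative scaling factors.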

Additional observations from a re-analysis of the deposited data

How the results depend on the processing

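No paired analysis was possible because each group is 1 library, and for the same reason no replicate could be left out. Values below are log2 ratios for sums of clustered and of variant genes, and counts of histone genes at least 2-fold higher or lower; the cause of a shift was not tested unless it follows from the setting (fewer UMIs or cells). Of 258 such values 139 stayed within their limits and 3 changed direction, all of them between the cycling cells of the 2 tissues. Scaling moved every log2 ratio by −0.20 to 0.11, so sums as close as the resting ones depend on it.

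Tumour over lymph node, reported as clustered 1.02, variant 0.64, 29 higher and 0 lower: TMM scaling gave 0.92, 0.54 and 1 lower; median-ratio scaling 0.94, 0.55 and 1 lower; thinning to equal depth 1.33, 0.61, 16 higher and 1 lower; equal weight of cells 1.32, 0.62 and 1 lower. Without the 5% deepest cells the sums were 2.30 and 0.77, without the marker limits 0.97 and 0.61 with 2 lower. A minimum of 1 UMI gave 4 lower, and leaving out Hist1h2ap (chosen after seeing the data) 1.18.

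Cycling over resting in the tumour, reported as 2.999, 0.74, 47 higher and 0 lower: variant sums were 0.85 under each scaling, 0.65 thinned (11 higher), 0.69 with equal weights, 0.68 with limits at 0.5 times and 0.70 with classes from equal-depth counts. Clustered sums were 2.63 without marker limits, 2.69 with limits at 0.5 times and 1.999 without Hist1h2ap; free RNA subtraction gave 3.21 and 0.80, and a minimum of 1 UMI 3 lower.

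Cycling over resting in the lymph node, reported as 3.92, 1.03, 25 higher and 1 lower: TMM gave 3.71 and 0.83, median-ratio 3.75 and 0.86, thinning 3.48 and 0.96 (8 higher), equal weights 3.52 and 0.96. Without the 5% deepest cells they were 2.29 and 0.64, with 10 higher and 4 lower. Free RNA subtraction gave 4.02 and 1.10, doubled limits 4.35 and 1.18, limits at 0.5 times 3.46 and 0.89, equal-depth classes 3.72 and 0.95, and leaving out Hist1h2ap 2.16. A minimum of 50 UMIs gave 12 higher, and of 1 UMI 51 higher and 7 lower.

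Resting tumour over resting lymph node, reported as 0.21, 0.37, 3 higher and 3 lower: TMM gave 0.056 and 0.22, median-ratio a variant sum of 0.23, thinning 0.056 and 0.45, equal weights a variant sum of 0.42, no marker limits 0.49 and 0.34. Doubled limits gave a clustered sum of 0.38 with 8 higher and 5 lower, limits at 0.5 times a variant sum of 0.41 with 1 lower, and equal-depth classes 1 lower. A minimum of 50 UMIs gave 0 lower, and of 1 UMI 19 higher and 19 lower.

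Replication over mitosis in the tumour, reported as −1.68, −0.50, 1 higher and 22 lower: thinning gave −2.03 and −0.57 with 0 higher and 7 lower, equal weights −1.87, no deepest cells a variant sum of −0.58, doubled limits −0.98 and −0.39, limits at 0.5 times −0.91 and −0.20 with 7 lower, equal-depth classes −1.25 and −0.39, and leaving out Hist1h2ap −1.38. A minimum of 50 UMIs gave 0 higher and 11 lower, and of 1 UMI 5 higher and 44 lower.

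Cycling tumour over cycling lymph node (alternatives chosen after seeing the data), reported as −0.71, 0.082, 3 higher and 8 lower: leaving out the 5% deepest cells reversed the clustered sum to 0.96 and gave a variant sum of 0.51, with 29 higher and 4 lower. Leaving out Hist1h2ap reversed the clustered sum to 0.095, and doubled limits the variant sum to −0.039, with −0.95 and 1 higher. Variant sums were 0.12 (TMM) and 0.13 (median-ratio). Thinning gave −0.50, 0.14 and 0 lower, equal weights −0.51, 0.15 and 6 higher, no marker limits −0.79, limits at 0.5 times −0.45 and 0.21 with 8 higher and 2 lower, and equal-depth classes −0.55 and 0.15 with 3 lower. A minimum of 50 UMIs gave 3 lower, and of 1 UMI 10 higher.

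Of 2361 values of single genes, 2044 stayed within their counting interval and 6 called ones reversed: Hist1h2ap between cycling cells (0.94 without the deepest), Hist4h4 cycling over resting in the tumour (−1.18 thinned, −0.40 with limits at 0.5 times), Hist1h2bc there (−0.64 without marker limits), Hist1h2be in resting cells (0.21 thinned) and Hist1h4h in replication over mitosis (0.057 with doubled limits). Depth limits the genes with few resting UMIs most: thinning left 19 of 58 genes for the tumour and 17 of 37 for the lymph node.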
